A study of Mus musculus with 15 samples.

Results

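The comparison set 5-aminosalicylic acid (5-ASA, mesalamine) against no drug in the colon of mice with colitis-associated tumours, with inflamed and polypoid tissue in one comparison. It holds all samples of the study, chosen by their treatment label: 8 of 8 mice and 15 of 15 arrays, with 4 mice and 7 arrays in the 5-ASA arm and 4 mice and 8 arrays in the untreated arm. Its question was which genes differed with the drug in both tissues.

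All mice were female Swiss Webster mice, 7 weeks old at the start, and all had received the colon carcinogen azoxymethane (AOM, 7.4 mg/kg) and 3 cycles of 4% dextran sulfate sodium (DSS), which injures the colon lining. A cycle was 7 days of DSS and 21 days of water, from 9 weeks of age, and the mice were killed at 18 weeks. One arm was given 5-ASA at 75 mg/kg, and the other arm, labelled as without treatment, was given vehicle. Inflamed or polypoid areas were cut from frozen sections by laser capture, so a sample can hold epithelium, immune cells and stroma. Each of the 4 groups (untreated inflamed, treated inflamed, untreated polypoid, treated polypoid) held 2 mice, and each mouse gave tissue to 1 group. No group of mice without AOM and DSS was part of the comparison.

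5-ASA is an aminosalicylate given for ulcerative colitis and works mainly on the colon lining that it reaches from the lumen. It is known to activate the nuclear receptor PPAR-gamma and to dampen NF-kB signalling and the cyclooxygenase and lipoxygenase routes to prostaglandins and leukotrienes. It has also been linked to lower Wnt and beta-catenin signalling, the pathway that drives most colon tumours, and colon cells inactivate it by N-acetylation.

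Values are log2 of sample over a universal mouse reference RNA hybridised in the other dye, with 1 value per mouse. A difference of 1 on this scale is a 2-fold difference on the plain scale. Median sample brightness per array lay between 148.6 and 257.2 scanner units, with a local background of 41 to 63, and 57.4% to 90.9% of spots were well above background. Treated inflamed replicate 2, the sample with 1 array, had the lowest share. The arrays were scanned in 4 sessions: session 1 held the first replicates of both inflamed groups, session 2 the first replicates of both polypoid groups, session 3 the second replicates of all groups except treated inflamed, and session 4 that mouse alone. Drug and no drug could therefore be set against each other within a session in 1 session for inflamed tissue (session 1) and in 2 sessions for polypoid tissue (sessions 2 and 3). The spread between the 2 mice of a group holds any difference between sessions. Markers were read beside the tissue labels. Of 25 mature colonocyte genes tested, 22 were well above background on every array, which does not tell the tissues apart. The median level of 24 Wnt and beta-catenin targets was -0.36 to 0.39 in the 4 inflamed samples and 1.84 to 2.62 in the 4 polypoid samples. That list was chosen with earlier results of these data known, so it is no independent check of the labels.

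No gene passed the test. Of 21300 genes, 0 (0%) had a limma adjusted p under 0.05 for 5-ASA against no drug over both tissues, and the smallest adjusted p was 0.766. At an unadjusted p under 0.05 there were 1360 genes (6.38%), 852 higher (4%) and 508 lower (2.38%) with 5-ASA, where 5% of the genes would lie there if no gene differed. The 95% interval of a difference had a median half-width of 0.38, while the median size of the difference over all genes was 0.12. The same samples called 1264 genes (5.93%) for polypoid over inflamed tissue. The median standard error of 0.156 is the same for both comparisons by construction, since they use the same group means and spread. By tissue, 0 of 21300 genes passed in inflamed tissue (933 genes, 4.38%, at unadjusted p under 0.05) and 0 passed in polypoid tissue (1653 genes, 7.76%).

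The balance of higher and lower genes depended on which untreated mice were included. Of the genes at unadjusted p under 0.05, 62.6% were higher with 5-ASA. This share was 39.5% with scan session as a block, 37.2% when untreated inflamed replicate 2 was left out and 41.8% when untreated polypoid replicate 2 was, so the majority turned to lower. The number of such genes was 3002 in the absence of untreated inflamed replicate 1, 2256 in that of untreated polypoid replicate 1 and 902 in that of treated polypoid replicate 2. No direction of the whole profile is therefore given.

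Genes shared by both tissues were counted by a rule on single mice. A gene was taken as shared when both 5-ASA mice lay above, or both below, both untreated mice in inflamed tissue and again in polypoid tissue. This held for 1322 genes (6.21%), 707 higher (3.32%) and 615 lower (2.89%) with 5-ASA. Nearly as many, 1273 genes (5.98%), had no overlap in either tissue but opposite directions in the 2 tissues. In 1 tissue alone, 6275 genes (29.5%) had no overlap in inflamed and 8619 (40.5%) in polypoid tissue. The difference had the same sign in both tissues for 10744 of 21300 genes (50.4%). Over these genes, which do not count as replicates, the difference in inflamed tissue and that in polypoid tissue correlated at Pearson r = 0.0436 and Spearman rho = 0.0428. The 2 differences share no mice. In the plot of one against the other, the genes formed a cloud around the origin with no diagonal, and few of the shared genes lay far out along either arm.

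**Figure D1:**
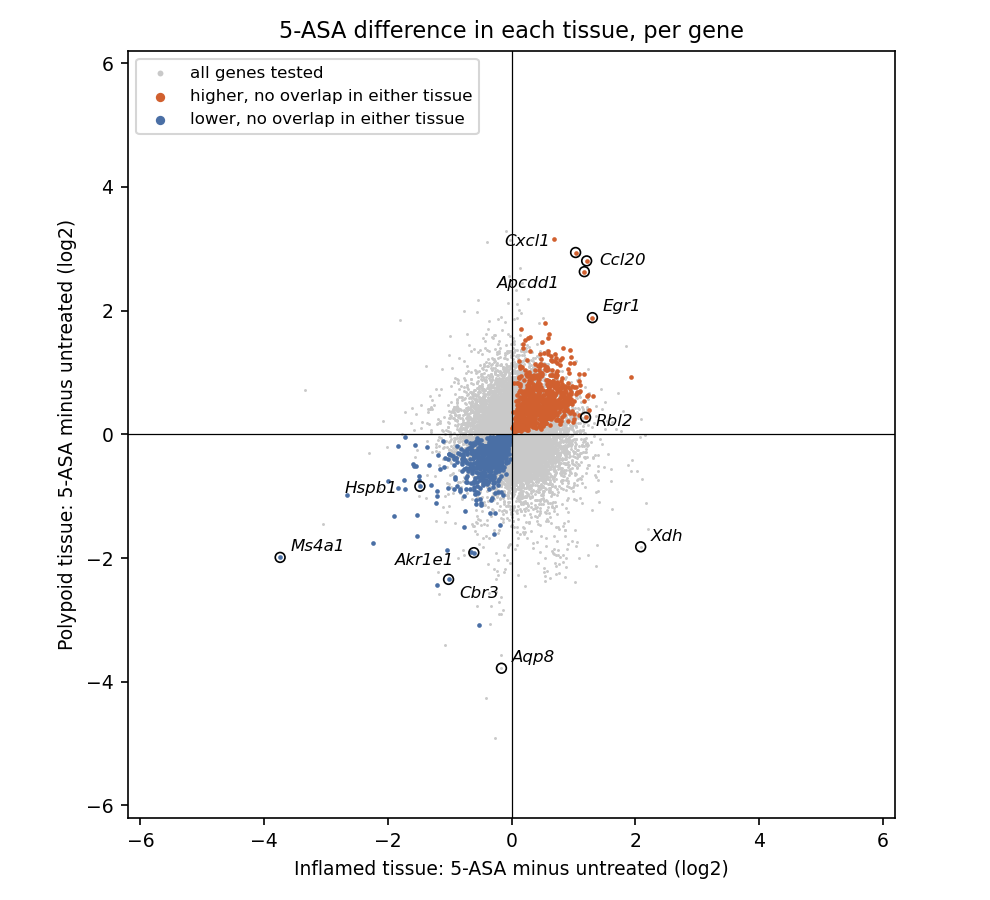
Difference of 5-ASA minus untreated in inflamed tissue (horizontal, log2) and in polypoid tissue (vertical, log2), 1 point per gene for 21300 genes, each the difference of 2 means of 2 mice. Orange and blue points are the 707 higher and 615 lower genes without overlap in either tissue; circled genes are named in the text, and the cloud shows no diagonal (r = 0.0436).

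The 24 genes described next, 12 in each direction, were the shared genes with the smallest unadjusted p, filled in because no gene passed. They were picked for these values, so the values describe them and support nothing further. Their direction within a session, or without a single mouse, is fixed by the absence of overlap.

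Apcdd1, a membrane inhibitor of Wnt signalling that is itself induced by the pathway, had the largest difference among the 12 higher genes. In inflamed tissue it lay at -0.56 and 0.35 with 5-ASA and at -0.74 and -1.83 without. Its polypoid levels were 4.15 and 4.69 with 5-ASA and 2.11 and 1.47 without. The polypoid samples of both arms stood above all inflamed samples, and the gap between the arms was wide in polypoid tissue and narrow between the nearest inflamed mice. The pooled difference was 1.90 ± 0.34 (SE; 3.74-fold; limma adjusted p = 0.766). Within sessions it was 0.18 in inflamed tissue and 2.04 and 3.22 in polypoid tissue, and a mean over the gene's 2 probes gave 1.01. The probe was saturated on 1 treated array and on 0 untreated arrays.

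Il17rd, a membrane protein that restrains fibroblast growth factor and ERK signalling, had the smallest unadjusted p of all shared genes. It lay at -2.12 and -2.18 with 5-ASA against -2.65 and -2.82 without in inflamed tissue. The polyps gave -0.85 and -0.50 against -1.92 and -2.10. The replicates were close together in every group, which set the small standard error of 0.12 around a difference of 0.96 (limma adjusted p = 0.766). The value belongs to the brightest of 4 probes, the only one of them with a positive difference, and the mean over the probes was 0.12.

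Rbl2, which encodes the retinoblastoma family protein p130 that holds cells in quiescence, was higher by 0.74 ± 0.10. The inflamed values were 0.96 and 0.83 with 5-ASA against -0.29 and -0.31 without, a clear gap. The polypoid values were 0.26 and 0.36 against 0.17 and -0.10, where the arms nearly touched. Ackr3, a scavenging receptor for the chemokine CXCL12, showed gaps of like size in both tissues. Its levels were 0.34 and 0.34 against -0.40 and -0.81 in inflamed tissue, and 0.62 and 0.62 against 0.13 and -0.35 in polypoid tissue (difference 0.84 ± 0.15).

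The other 8 higher genes differed by 0.49 to 1.16. Aspa, which splits N-acetylaspartate, differed by 1.16 ± 0.18 and BC051665 by 0.97 ± 0.16. Abr, a regulator of small GTPases, differed by 0.78 ± 0.14, and Emilin2, a matrix glycoprotein, by 0.76 ± 0.13. Pank2, the kinase that starts coenzyme A synthesis, differed by 0.61 ± 0.09. The gap lay in both tissues for each of these 5 genes, by the way they were chosen. H4c9, one of many near-identical histone H4 genes whose transcripts a probe may not separate, differed by 0.61 ± 0.10. Fbxl5, the iron-sensing subunit of a ubiquitin ligase, differed by 0.54 ± 0.10, and Btf3, a subunit of the nascent polypeptide complex at the ribosome, by 0.49 ± 0.08. With the mean over probes in place of the brightest probe, the difference was 0.35 for Emilin2, 0.19 for Fbxl5, 0.29 for Btf3, 0.42 for Abr and 0.74 for Aspa. The probes of Emilin2 and Fbxl5 differed in sign, with 1 of 2 and 2 of 3 positive. Those of Btf3, Abr and Aspa were all positive.

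Among the 12 lower genes Cbr3, a carbonyl reductase of the NRF2 antioxidant programme, had the largest difference. It lay at 1.02 and 1.05 with 5-ASA against 1.48 and 2.63 without in inflamed tissue. Its polypoid levels were -1.4 and -1.99 against 0.87 and 0.43. The polypoid arms were far apart, while in inflamed tissue the untreated replicates differed from each other more than the nearest mice of the 2 arms. The pooled difference was -1.68 ± 0.29 (3.21-fold lower; limma adjusted p = 0.766).

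Akr1e1, an aldo-keto reductase, was lower by 2.4-fold (-1.26 ± 0.16) by its brightest probe, and by -0.85 as the mean over 2 probes. Its levels were -0.68 and -0.81 with 5-ASA against -0.26 and -0.0049 without in inflamed tissue, and -1.75 and -2.08 against -0.28 and 0.28 in polypoid tissue. The 2 untreated groups were alike and the gap was widest in polypoid tissue. Mecr, the last enzyme of mitochondrial fatty acid synthesis, lay at 1.02 and 1.25 against 1.46 and 1.36 in inflamed tissue. Its polypoid levels were -0.08 and -0.16 against 1.2 and 1.1. The 2 polypoid 5-ASA mice stood apart from the other 6 mice, and the pooled difference was -0.77 ± 0.10.

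Hdac10, a polyamine deacetylase, showed an even gap in both tissues. It lay at 0.09 and 0.20 with 5-ASA against 0.75 and 0.76 without in inflamed tissue, and at -0.67 and -0.49 against 0.15 and 0.22 in polypoid tissue. The difference was -0.69 ± 0.09, with -0.61 in inflamed and -0.76 in polypoid tissue. Both of its probes were lower, and their mean gave -0.44.

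The other 8 lower genes differed by -1.27 to -0.49. Rps4l, a ribosomal protein gene whose probe may not separate it from near copies, differed by -1.27 ± 0.21. Olr1, the receptor for oxidised low-density lipoprotein, differed by -0.95 ± 0.16, with -1.62 in polypoid and -0.29 in inflamed tissue. Its probe was well above background on 4 of 7 treated and 5 of 8 untreated arrays, and its inflamed levels of -0.41 to 0.15 carry little signal. Mcrip2 differed by -0.77 ± 0.11, Dad1, a subunit of the oligosaccharyltransferase, by -0.66 ± 0.12, and Pop5, a subunit of ribonuclease P, by -0.64 ± 0.09. Nudt19, a peroxisomal coenzyme A hydrolase, differed by -0.57 ± 0.10, Cog4, a subunit of a Golgi tethering complex, by -0.52 ± 0.09, and Acsf3, a mitochondrial malonyl-CoA synthetase, by -0.49 ± 0.09. With the mean over 3 probes Cog4 differed by -0.26, and with the mean over 2 probes Pop5 differed by -0.43.

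**Figure D2:**
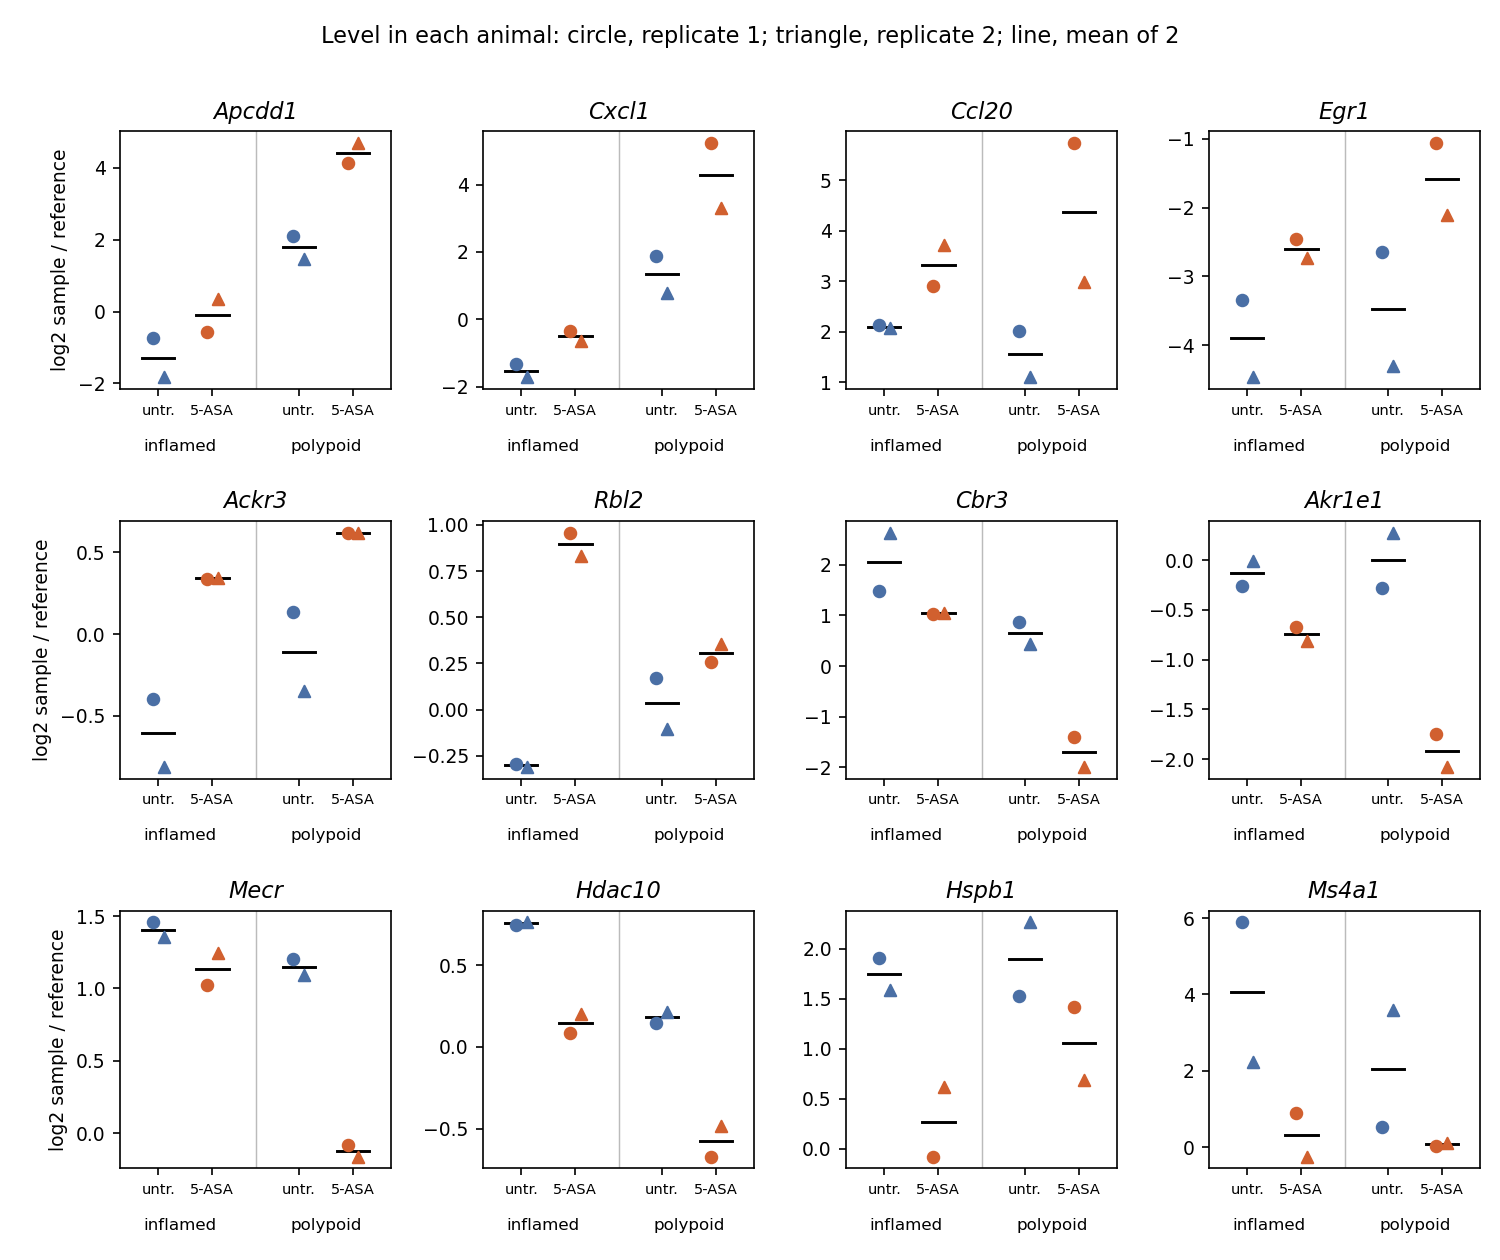
Level in each mouse (log2 sample over reference, vertical). Apcdd1, Ackr3, Rbl2, Cbr3, Akr1e1, Mecr and Hdac10 are from the 24 leading shared genes. Cxcl1, Ccl20, Egr1, Hspb1 and Ms4a1 are shared members of the gene lists. Blue is untreated, orange is 5-ASA, circles are replicate 1, triangles replicate 2, and the black line is the mean of 2. The arms do not overlap within a tissue in any panel, which is how the genes were chosen, and the size of the gap differs between the tissues.

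**Figure D3:**
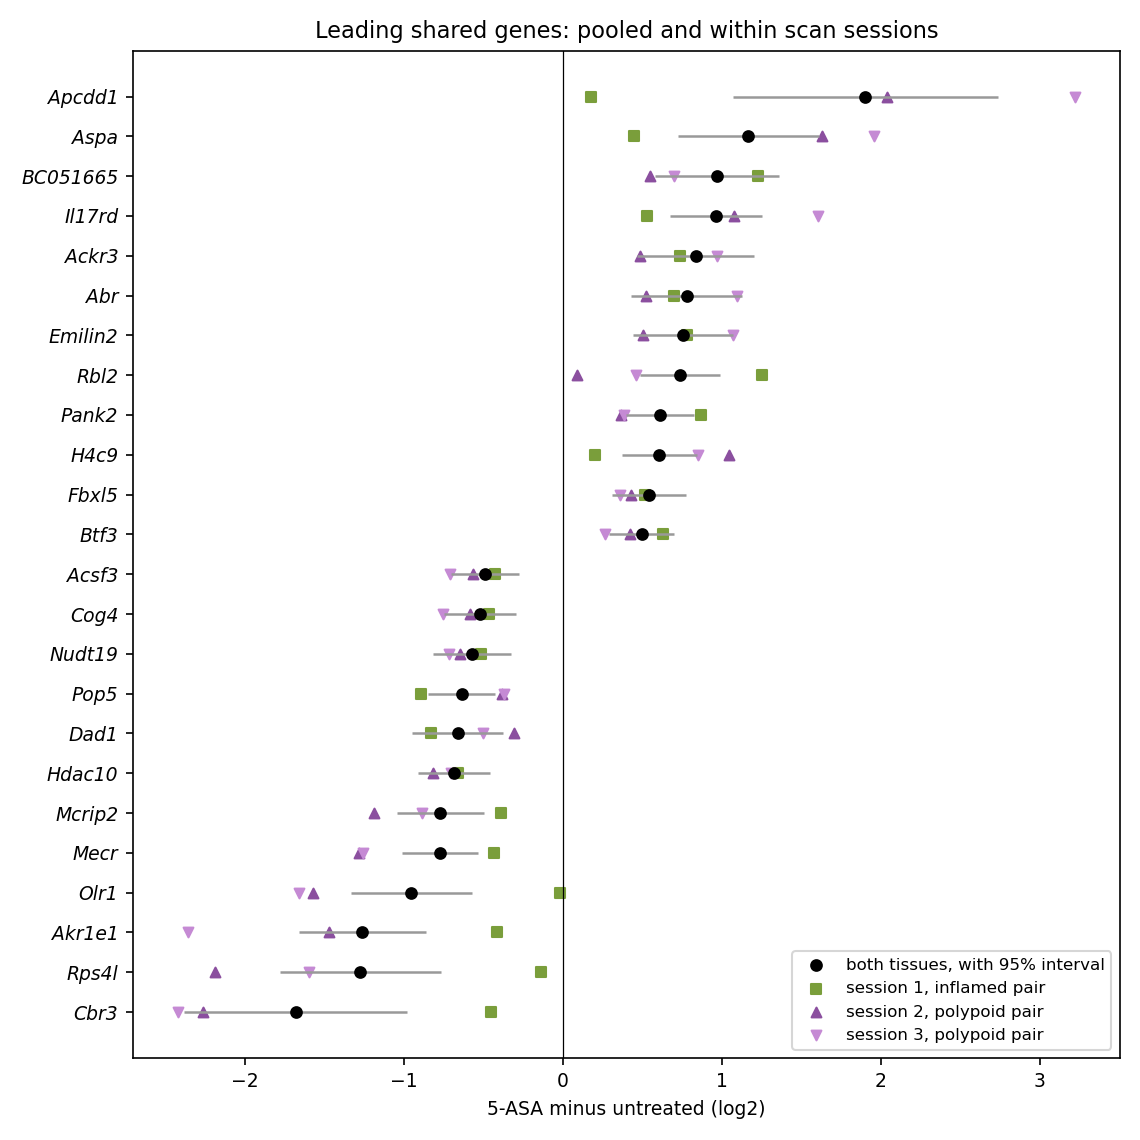
Difference of 5-ASA minus untreated (log2, horizontal) for the 24 leading shared genes: black points with 95% interval are the pooled fit, and coloured symbols are the differences between the 5-ASA and the untreated mouse of 1 tissue scanned in the same session. For Olr1, Rps4l, Apcdd1 and H4c9 the inflamed pair of session 1 lay nearer 0 (-0.02, -0.14, 0.18 and 0.20) than the polypoid pairs. For Cbr3 the inflamed pair of session 1 lay at -0.46 and the polypoid pairs at -2.27 and -2.42.

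Across 33 gene lists chosen for the drug, the disease model and the cells of the colon, 0 members passed at adjusted p under 0.05 (background 0% of all genes). The lists held 618 distinct tested genes, of which 21 higher and 23 lower were shared without overlap, 7.12% against 6.21% of all genes. The shared counts of single lists below stand beside 3.32% higher and 2.89% lower over all genes. The median difference over all genes was -0.0072, and the medians of the 33 lists are set against that value. List members outside the naming rule were singled out with their values known.

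**Figure D4:**
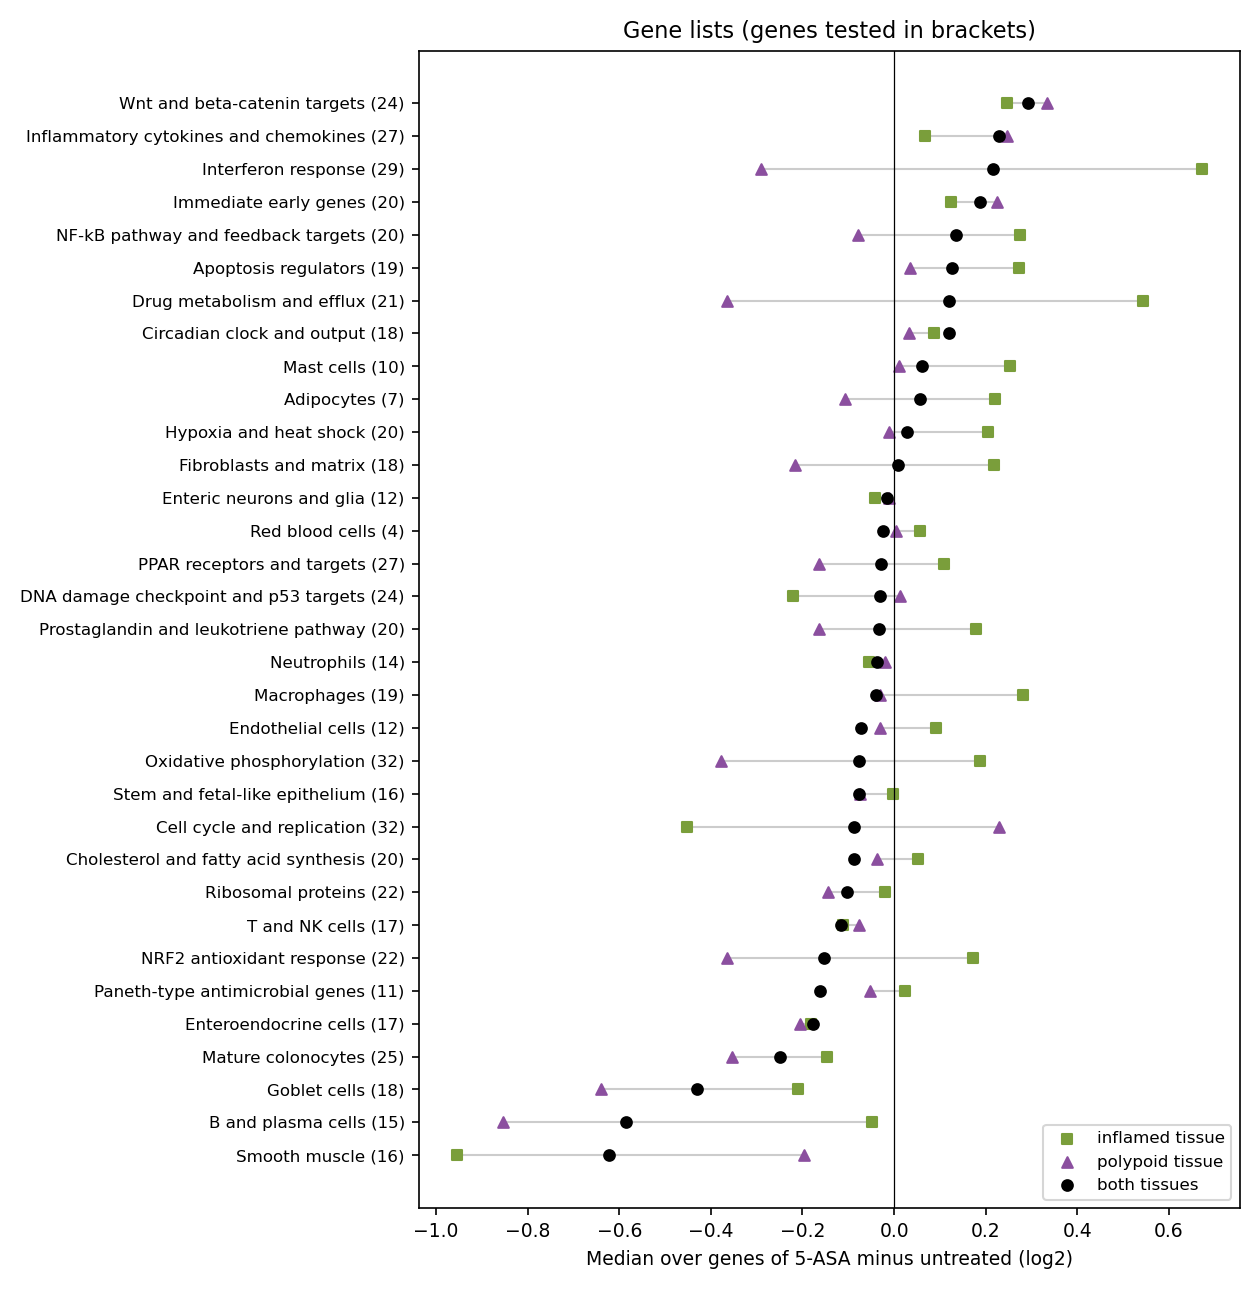
Median over the genes of each list of 5-ASA minus untreated (log2, horizontal), for both tissues (black circles), inflamed tissue (green squares) and polypoid tissue (purple triangles), with the number of genes tested in brackets. Most medians lie within 0.2 of 0, the tissues point in opposite directions for several lists, the interferon and drug metabolism lists among them, and the 4 lowest medians belong to cell type lists.

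The PPAR, NF-kB and prostaglandin lists had pooled medians from -0.03 to 0.14, each positive in inflamed and negative in polypoid tissue. The 27 genes of PPAR receptors and targets had a median of -0.03 (12 positive and 15 negative; 0.11 in inflamed and -0.16 in polypoid tissue), with 2 higher and 2 lower at unadjusted p under 0.05 and 0 higher and 2 lower among the shared genes. Pparg itself, named for its role, did not separate the arms as a pooled value. It lay at 3.13 and 3.26 with 5-ASA against 2.81 and 2.88 in inflamed tissue and at 2.72 and 2.31 against 2.56 and 3.18 in polypoid tissue (inflamed difference 0.35, polypoid difference -0.35). Acaa2, a thiolase of mitochondrial fatty acid oxidation, was the list's leading member at -0.46 ± 0.09 and did not overlap in either tissue. The other shared member was Fabp2, an intestinal fatty acid carrier, at -0.82 ± 0.42. Pdk4, the kinase that switches off pyruvate dehydrogenase when fat is burned, differed by 1.23 ± 0.35, with 2.19 in polypoid and 0.27 in inflamed tissue, where the arms overlapped.

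For 20 genes of the NF-kB pathway and its feedback targets the median was 0.14 (13 positive and 7 negative), with 0.27 in inflamed and -0.08 in polypoid tissue and -0.40 within session 3, and 0 were shared. Nfkbiz, an inducible nuclear cofactor of NF-kB, differed by 1.08 ± 0.36, with levels of 2.42 and 2.14 against 1.36 and 0.32 in inflamed tissue and 2.48 and 1.65 against 1.89 and 0.80 in polypoid tissue. The polypoid arms overlapped. Traf1, an adaptor of TNF receptors, differed by -0.72 ± 0.26.

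For 20 genes of the prostaglandin and leukotriene pathway the median was -0.03 (9 positive and 11 negative; 0.18 in inflamed and -0.16 in polypoid tissue), 0 lay at unadjusted p under 0.05 and 0 were shared. The 2 members with the smallest p were Tbxas1, thromboxane synthase, at 0.64 ± 0.34 and Ptges, a prostaglandin E synthase, at -0.38 ± 0.20. Without untreated inflamed replicate 2 they differed by 0.34 and -0.19. Tbxas1 differed by 0.29 as the mean over 3 probes, of which 1 was negative, and by 0.38 in the deposited table, and Ptges by -0.11 with scan session as a block. Ptgs2, which encodes cyclooxygenase 2 and was named for its role, spread widely among replicates. In polypoid tissue it lay at 2.45 and -1.98 with 5-ASA and at 0.88 and -0.87 without, so the spread within an arm exceeded the difference of 0.60 ± 0.98. Of 21 genes of drug metabolism and efflux, 0 were shared, and the median was 0.54 in inflamed and -0.36 in polypoid tissue. Abcb1b, a drug efflux pump, differed by 1.21 in inflamed and -0.24 in polypoid tissue. Ahr, a receptor for aromatic compounds, differed by 0.65 ± 0.30, and by 0.33 without untreated inflamed replicate 2. Nat2, the acetylating enzyme, also named for its role, differed by 0.45 ± 0.41.

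Inflammatory cytokines and chemokines were on balance positive, with a median of 0.23 (19 positive and 8 negative of 27). The same median was 0.07 in inflamed and 0.25 in polypoid tissue, and 2 members were shared, both higher: Cxcl1, which attracts neutrophils, and Ccl20, which attracts CCR6-bearing lymphocytes and dendritic cells. Both are classical NF-kB targets of epithelium and stroma, and their promoters are shown because these were the largest shared differences in the list. The 250 bases before the start site come from RefSeq for GRCm38.p6, chr5:90890995-90891244 and chr1:83116516-83116765, both on the plus strand, 5′ to 3′. Capitals mark matches to the kappaB motif on either strand (2 overlapping matches in Cxcl1 and 1 in Ccl20).
Cxcl1: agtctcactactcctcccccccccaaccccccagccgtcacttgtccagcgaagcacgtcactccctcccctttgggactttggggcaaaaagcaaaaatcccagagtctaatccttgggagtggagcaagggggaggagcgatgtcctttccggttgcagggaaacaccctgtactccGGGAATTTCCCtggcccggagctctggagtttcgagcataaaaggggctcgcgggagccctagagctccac
Ccl20: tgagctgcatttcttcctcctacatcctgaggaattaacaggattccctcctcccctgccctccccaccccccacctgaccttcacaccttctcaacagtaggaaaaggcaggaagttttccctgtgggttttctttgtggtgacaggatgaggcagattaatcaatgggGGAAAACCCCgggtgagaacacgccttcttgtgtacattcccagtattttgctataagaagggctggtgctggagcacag
Of 32851 windows of this length in the table, 3.9% held a match to the motif. The match ended 60 bases before the start site in Cxcl1 and 70 bases before it in Ccl20. A match describes the letters and is no evidence that NF-kB bound there.

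Cxcl1 lay at -0.34 and -0.63 with 5-ASA against -1.32 and -1.72 without in inflamed tissue. The polyps gave 5.23 and 3.31 against 1.89 and 0.78. Both arms were higher in polypoid tissue, and the 5-ASA replicates there were far apart. The pooled difference was 1.99 ± 0.47 (3.96-fold; limma adjusted p = 0.766). Ccl20 lay at 2.90 and 3.72 against 2.13 and 2.07 in inflamed tissue and at 5.73 and 2.99 against 2.01 and 1.1 in polypoid tissue. One polypoid 5-ASA mouse, replicate 1, was the highest for both genes, and without it the pooled difference of Ccl20 was 1.32 in place of 2.01 ± 0.61 and that of Cxcl1 was 1.51. Tnf, Il1b and Il6, the cytokines most often followed in colitis and named for that, differed by 0.38 ± 0.22, 0.01 ± 0.51 and 0.31 ± 0.61.

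Immediate early genes, transcription factors induced within minutes of a stimulus, had a median of 0.19 (15 positive and 5 negative of 20). Of these, 2 were shared higher and 1 shared lower, beside 3.32% and 2.89% of all genes. Egr1 lay at -2.45 and -2.74 with 5-ASA against -3.34 and -4.47 without in inflamed tissue, and at -1.06 and -2.11 against -2.64 and -4.30 in polypoid tissue. Its difference was 1.6 ± 0.47 (3.02-fold). Klf4, a factor of goblet cell and surface epithelium differentiation, differed the other way, by -0.83 ± 0.18. The inflamed levels of Klf4 were close, 4.46 and 4.35 against 4.54 and 4.65, and the polypoid levels were 2.20 and 1.98 against 3.95 and 3.17. Its probe was saturated on 3 treated and 2 untreated arrays, so high levels are compressed. The other shared higher member was Fosl2, a subunit of AP-1, at 0.82 ± 0.32. Among 18 clock and clock output genes 3 were shared higher, beside 3.32% of all genes. They were Nr1d2, a repressor of the clock loop, at 0.73 ± 0.28 (0.46 without untreated inflamed replicate 2), Cry2 at 0.45 ± 0.18 and Tef at 0.54 ± 0.24. Dbp was shared lower at -0.21 ± 0.10, and Nfil3, a repressor of clock output genes, differed by -0.45 ± 0.11.

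The Wnt and beta-catenin targets had the highest median of the lists, 0.29, with 0.25 in inflamed and 0.33 in polypoid tissue. Of 24 members 15 were positive and 9 negative, 8 were higher and 0 lower at unadjusted p under 0.05, and 5 were shared higher and 1 shared lower. The background was 4% higher and 2.38% lower at that p, and 3.32% shared higher. The list was chosen with earlier results of these data known, so its counts against the background are no independent evidence. Besides Apcdd1 the shared higher members were Lef1, Dkk3, Rnf43 and Cd44, of which Cd44 falls under the naming rule. Lef1, a transcription factor that binds beta-catenin, lay at -2.73 and -2.88 with 5-ASA against -3.11 and -3.64 in inflamed tissue, and at 0.06 and -0.54 against -1.16 and -1.49 in polypoid tissue. Its difference was 0.83 ± 0.19, from the brighter of 2 probes, which differed in sign. Dkk3, a secreted relative of the Dickkopf Wnt inhibitors, differed by 0.92 ± 0.25. Rnf43, a ubiquitin ligase that removes Wnt receptors, differed by 0.61 ± 0.25. Cd44, a hyaluronan receptor of crypt base cells, differed by 0.59 ± 0.20 (0.24 as the mean over 3 probes, of which 2 were positive). Znrf3, the partner of Rnf43, differed by 1.22 in polypoid and 0.02 in inflamed tissue. Ephb3, the shared lower member, differed by -0.18.

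Other Wnt targets did not meet the rule for shared genes. Lgr5, the receptor that marks intestinal stem cells, differed by -0.15 ± 0.47, Myc by -0.09 ± 0.29 and the cyclin Ccnd1 by -0.12 ± 0.17, and Axin2, a feedback inhibitor, by 0.54 ± 0.27. These 4 were named for their place in the pathway. The list's median in single mice was 0.03 and 0.39 with 5-ASA against 0.10 and -0.36 without in inflamed tissue, where the arms overlapped. In polypoid tissue it was 2.62 and 2.6 against 1.96 and 1.84, where they did not. Within session 1 the median difference was -0.21. Since the captured areas hold several cell types, more tumour epithelium in a sample and more RNA per cell cannot be told apart.

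Genes of the cell cycle and replication had medians of opposite sign in the 2 tissues, with a median of -0.45 in inflamed and 0.23 in polypoid tissue over 32 genes. The inflamed median was -0.75 within session 1 and -0.03 for the other inflamed pair, and treated inflamed replicate 1 had the lowest level, -2.0, against -1.34 to -1.13 in the other inflamed mice. None was shared (0 in either direction). Mcm6, a subunit of the replicative helicase, differed by -0.72 in inflamed and -0.05 in polypoid tissue. Cdc6, which loads that helicase, differed by -0.37 ± 0.19, by -0.23 without untreated inflamed replicate 2, -0.24 without untreated polypoid replicate 2 and -0.79 from the scanner's processed signals. For 24 genes of the DNA damage checkpoint and p53 the median was -0.03, with 2 shared lower: Cdc25a, a phosphatase that releases cells into S phase, at -0.36 ± 0.15 (-0.21 with scan session as a block), and Cdc25c, named because it was the other of 2, at -0.20. Cdc25b differed by 1.0 in polypoid and by -0.26 in inflamed tissue.

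Of 19 apoptosis regulators 14 were positive and 5 negative, with a median of 0.13 and 2 shared higher. Pmaip1, the death-promoting BH3 protein Noxa, lay at 1.04 and 0.30 against -0.57 and -0.45 in inflamed tissue and at 0.28 and 0.35 against 0.14 and -1.47 in polypoid tissue. One untreated polypoid mouse, replicate 2, was far below the rest, and the polypoid pair of session 2 differed by 0.14. The pooled difference was 1.08 ± 0.37, and 0.68 without that mouse. Apaf1, the scaffold of the apoptosome, differed by 0.72 ± 0.25 (0.35 as the mean over 3 probes, of which 2 were positive).

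The NRF2 antioxidant genes were mostly negative, 17 of 22, with a median of -0.15. In inflamed tissue the median was 0.17 and in polypoid tissue -0.36, so the sign came from the polyps. Cbr3 was the only shared member of the 22. The list's other leading member was Gpx2, the gut glutathione peroxidase, at -0.53 ± 0.14, which lay at 4.41 and 3.92 with 5-ASA against 5.09 and 5.11 without in inflamed tissue. The probe was saturated on 2 untreated arrays. The polypoid levels overlapped, 4.72 and 4.52 against 4.86 and 4.63. Nqo1, the usual reporter of NRF2 and named for that, differed by -0.22 ± 0.24, and Nfe2l2, the gene of NRF2 itself, by 0.21 ± 0.16.

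The promoter of Cbr3 is shown because it had the largest difference among the 12 leading lower genes and is a known NRF2 target, and that of Hspb1 because it led the heat shock genes. Both windows are the 250 bases before the start site from RefSeq for GRCm38.p6, chr16:93682969-93683218 and chr5:135887669-135887918, on the plus strand. The motifs searched on both strands were the antioxidant response element core, TGACNNNGC, in Cbr3 and the heat shock element core, GAANNTTC, in Hspb1, and capitals mark the matches.
Cbr3: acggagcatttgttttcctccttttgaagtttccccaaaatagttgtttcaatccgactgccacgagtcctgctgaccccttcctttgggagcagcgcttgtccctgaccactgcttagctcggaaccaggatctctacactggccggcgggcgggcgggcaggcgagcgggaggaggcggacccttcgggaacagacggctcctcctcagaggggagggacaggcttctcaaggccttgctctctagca
Hspb1: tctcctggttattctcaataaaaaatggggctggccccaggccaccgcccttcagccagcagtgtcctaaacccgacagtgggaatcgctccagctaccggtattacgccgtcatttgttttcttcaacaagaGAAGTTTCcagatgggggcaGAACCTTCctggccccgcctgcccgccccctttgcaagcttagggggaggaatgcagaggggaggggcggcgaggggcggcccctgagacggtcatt
The Cbr3 window held 0 matches, which says only that these letters do not occur in it, and 10.2% of all 32851 windows held one. The Hspb1 window held 2 matches, the nearer ending 89 bases before the start site, and 6.69% of all windows held at least 1.

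Hspb1, the small heat shock protein HSP27, was lower by 2.24-fold (-1.16 ± 0.27). It lay at -0.08 and 0.61 with 5-ASA against 1.91 and 1.58 without in inflamed tissue, and at 1.42 and 0.69 against 1.52 and 2.27 in polypoid tissue. The inflamed arms were well apart, while the nearest polypoid mice differed by the 0.11 seen within session 2. The gene's 2 probes disagreed in sign and their mean gave -0.55. Over 20 hypoxia and heat shock genes the median was 0.03, with Bnip3, a hypoxia-induced mitophagy receptor, at 1.0 ± 0.26.

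Respiratory chain genes had a median of 0.19 in inflamed and -0.38 in polypoid tissue, which pooled to -0.08. The sterol synthesis and ribosomal lists had pooled medians of -0.09 and -0.10. Their shared members were Ndufa9, a subunit of complex I, at -0.52 ± 0.15, Insig1, a sterol sensor, at -0.17 ± 0.09 (-0.34 from the scanner's processed signals), and the ribosomal proteins Rps19 at -0.50 ± 0.17 (-0.21 as the mean over 3 probes, of which 1 was positive) and Rpl10 at -0.27 ± 0.13, the last saturated on 1 untreated array. All 4 were lower.

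The interferon response genes had medians of opposite sign in the tissues. Their median over 29 genes was 0.67 in inflamed and -0.29 in polypoid tissue, 0.22 when pooled, and 0 were shared. In single mice the list's median level was 2.35 and 1.86 with 5-ASA against 1.06 and 0.73 without in inflamed tissue, without overlap. In polypoid tissue it was 0.62 and 0.60 against 1.43 and 0.58. Ifit2, an interferon-induced antiviral protein, lay at 2.68 and 2.25 against 0.77 and -0.0049 in inflamed tissue, with a tissue difference of -2.12. Usp18, a feedback inhibitor of interferon signalling, differed by 0.79 ± 0.29, and by 0.52 without treated inflamed replicate 1.

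Markers of cell types showed the lowest medians, and they are given beside the shared genes because captured areas vary in their cells. Their part in the results above was not tested. Of the lists described next, 16 of 18 goblet, 22 of 25 colonocyte and 13 of 17 enteroendocrine genes were well above background on every array. The same held for 10 of 15 B and plasma cell and 14 of 16 smooth muscle genes. The probe filter let in only genes well above background on all arrays of some group. Goblet cell genes, which make and secrete mucus, had a median of -0.43, with 17 of 18 negative and 0 shared. Clca1, a secreted mucus protease, differed by -1.43 ± 0.40, with levels of 5.87 and 4.59 against 6.41 and 5.77 in inflamed tissue and 3.84 and 5.18 against 6.43 and 6.58 in polypoid tissue. The inflamed arms overlapped, and the probe was saturated on 3 treated and 6 untreated arrays, with a difference of -0.87 from the scanner's processed signals. Muc2, the main gel-forming mucin, named for its role, differed by -0.78 ± 0.37. The list's median level was 3.03 and 2.53 against 4.16 and 3.63 in inflamed tissue and 1.01 and 2.52 against 3.12 and 1.95 in polypoid tissue, and within session 3 its median difference was 0.12.

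Mature colonocyte genes had a median of -0.25 (19 of 25 negative), enteroendocrine genes -0.18 (16 of 17 negative). Aqp8, a water channel of surface colonocytes, lay at 5.36 and 4.81 against 5.37 and 5.12 in inflamed tissue, where the arms overlapped. Its polypoid levels were -0.09 and -0.03 against 4.69 and 2.74. The 2 polypoid 5-ASA mice lay at the level of the reference RNA, and the pooled value of -1.97 ± 0.42 came from a difference of -0.16 in inflamed and -3.78 in polypoid tissue. The shared colonocyte genes were Fabp2, Slc51b and Cdhr5, which differed by -0.82, -0.25 and -0.27, and Ceacam20, not shared, differed by -0.35 ± 0.12. Chgb, a granin of endocrine cells, had a polypoid difference of -3.07 and an inflamed difference of -0.35. Its untreated polypoid levels were 4.81 and 1.84, and without the first of these mice the pooled difference was -0.97 in place of -1.71 ± 0.65. Isl1, an endocrine transcription factor, was the one positive member of 17, at 0.39 ± 0.11, and was shared, while the glucagon gene Gcg was shared lower at -1.81 ± 0.90.

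B and plasma cell genes had a median of -0.59, -0.05 in inflamed and -0.85 in polypoid tissue, with 12 of 15 negative and 3 shared lower. Ms4a1, the B cell surface protein CD20, had the largest pooled difference of any gene named here, at -2.87 ± 0.99 (7.29-fold lower). It lay at 0.88 and -0.25 with 5-ASA against 5.89 and 2.23 without in inflamed tissue, and at 0.03 and 0.11 against 0.54 and 3.58 in polypoid tissue. Untreated levels ranged from 0.54 to 5.89 between mice, and the probe was well above background on 6 of 7 treated and 8 of 8 untreated arrays. Without untreated inflamed replicate 1 the difference was -1.95, and as the mean over 2 probes it was -2.01. Cd79b, a chain of the B cell receptor, differed by -1.88 ± 0.67, and by -1.12 without the same mouse. Cd79a, the partner of Cd79b, was shared at -0.10 ± 0.08.

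Smooth muscle genes had a median of -0.62, with -0.95 in inflamed and -0.20 in polypoid tissue, and 14 of 16 were negative. The list's level was highest in untreated inflamed replicate 1, at 2.77. The other untreated inflamed mouse was at 1.24, the 5-ASA inflamed mice at 0.70 and 1.0, and the polypoid mice at 0.29 and 0.26 with 5-ASA against 0.76 and 0.70 without. The 2 shared members were Des and Actg2, both lower, at -1.01 ± 0.32 and -0.70 ± 0.27. Cnn1 and Tagln, actin-binding proteins of contractile cells, differed by -1.30 ± 0.41 and -1.11 ± 0.32, with polypoid differences of -0.31 and -0.21. Within session 3 the list's median difference was 0.16.

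Of the stromal and immune lists, fibroblast and matrix genes had a median of 0.01 over 18 genes (10 positive and 8 negative). That median was 0.22 in inflamed and -0.22 in polypoid tissue, and 2 members were shared higher. Pdgfra, the growth factor receptor of fibroblasts, lay at -0.40 and 0.02 against -1.07 and -1.52 in inflamed tissue and at 0.36 and 0.32 against 0.02 and -0.93 in polypoid tissue (0.95 ± 0.24). Vim, the intermediate filament protein vimentin, differed by 0.73 ± 0.20 and was saturated on 2 treated arrays. Macrophage genes had a median of -0.04 (9 positive and 10 negative), with Mrc1, the mannose receptor, at 1.19 ± 0.43. The polypoid arms of Mrc1 overlapped, and the difference was 0.76 without untreated inflamed replicate 2 and 0.70 with scan session as a block. T and NK cell genes had a median of -0.12, with 5 positive and 12 negative of 17. Among the positive members were Gzmb and Gzma, granzymes of cytotoxic cells, at 0.91 ± 0.30 (0.60 without treated inflamed replicate 1) and 0.46 ± 0.17. Gata3, also positive, was shared higher at 0.31 ± 0.15. Neutrophil genes had a median of -0.04 over 14 genes, of which only 5 were well above background on every array. S100a9, a subunit of calprotectin, differed by -0.46 ± 0.19 (-0.24 without treated polypoid replicate 2). Mast cell genes had a median of 0.06, with Gata2 and Hdc shared higher at 0.80 ± 0.24 (0.53 without treated polypoid replicate 2) and 0.34 ± 0.16 (0.20 without untreated polypoid replicate 2). Endothelial, neural, red blood cell and adipocyte medians lay between -0.07 and 0.06, over 12, 12, 4 and 7 genes, and Sox10, a glial factor, was shared lower at -0.19 ± 0.10 (-0.12 without untreated inflamed replicate 2). The adipocyte list stood apart by mouse: its median level was 4.08 in treated inflamed replicate 1, 2.85 in untreated inflamed replicate 1 and 1.39 in untreated polypoid replicate 1, against 0.06 to 0.34 in the other 5 mice. Cfd, the adipocyte protease adipsin, followed these 3 mice at 7.48, 7.75 and 6.32 and differed by -2.24 ± 2.24. Pck1, an enzyme of glucose and glycerol synthesis, differed by -1.55 ± 0.78, and by -0.71 without untreated polypoid replicate 1. The part of this list in the other results was not tested. Stem and fetal-like epithelium genes had a median of -0.08 over 16 genes (7 positive and 9 negative). Cd44 was the shared member, and Anxa1 differed by 0.64 ± 0.20. Paneth-type antimicrobial genes had a median of -0.16 over 11 genes, with 0 shared.

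**Figure D5:**
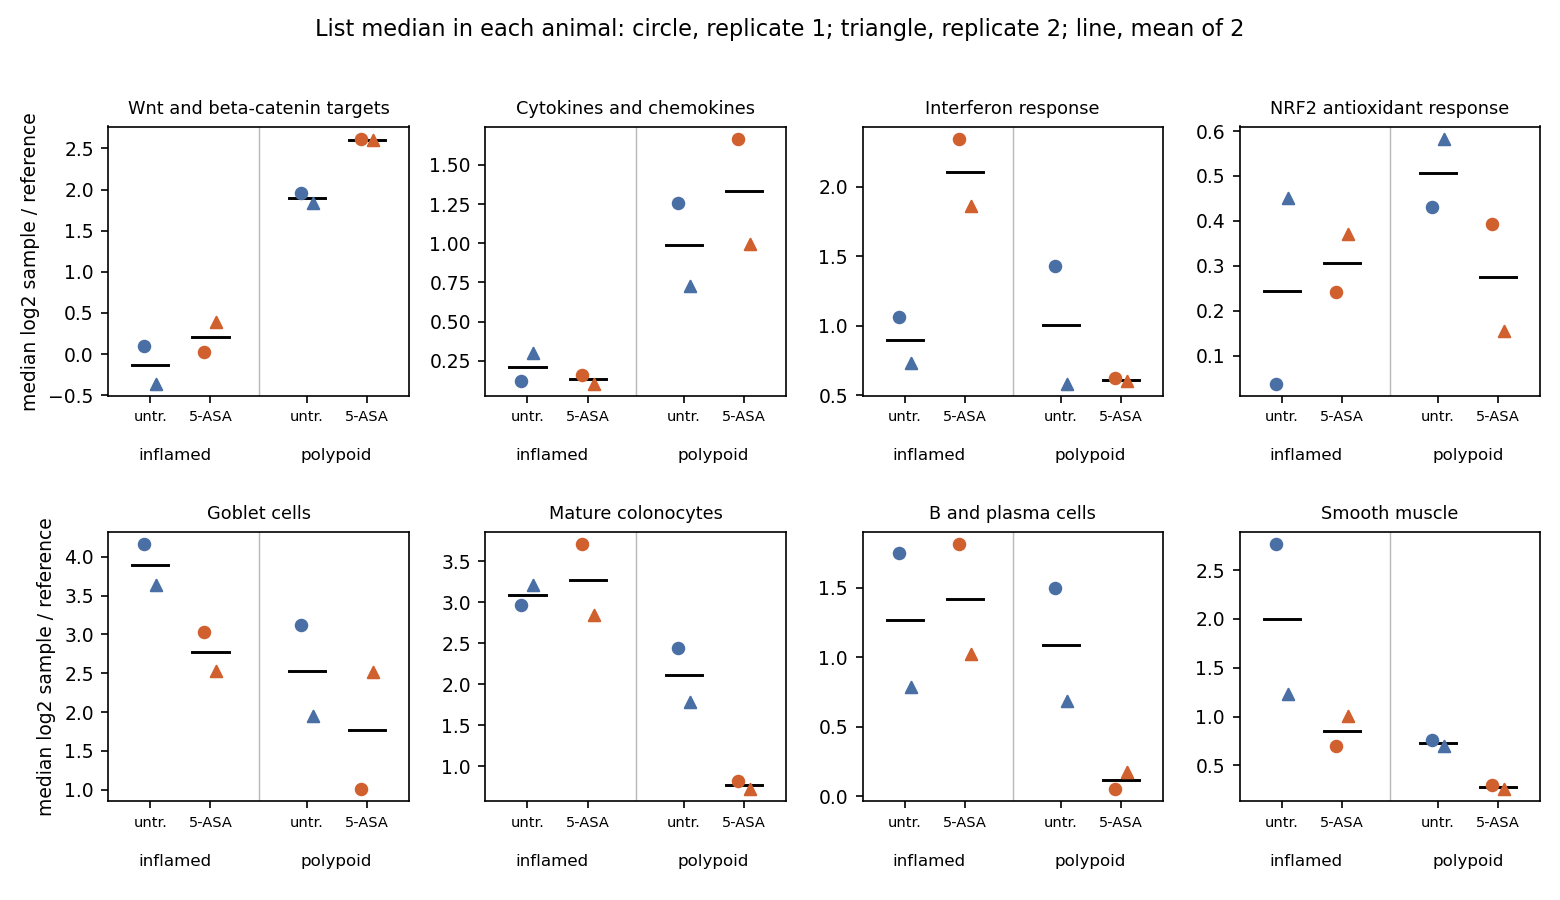
Median level of 8 gene lists in each mouse (log2 sample over reference, vertical); blue is untreated, orange is 5-ASA, circles are replicate 1, triangles replicate 2, and the line is the mean of 2. Of these 8 medians, smooth muscle is apart between the arms in both tissues, interferon and goblet genes in inflamed tissue only, and Wnt targets, NRF2, colonocyte and B and plasma cell genes in polypoid tissue only. The arms overlap in both tissues for cytokines and chemokines.

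The test of the difference between tissues was passed by 0 of 21300 genes (smallest adjusted p 0.797; 1272 genes, 5.97%, at unadjusted p under 0.05). The genes with the smallest p are given to show what the pooled value hides. Xdh, xanthine dehydrogenase, lay at 2.38 and 1.87 with 5-ASA against 0.19 and -0.12 in inflamed tissue, and at 0.01 and -0.75 against 1.62 and 1.27 in polypoid tissue. Its pooled difference of 0.13 ± 0.22 averaged 2.09 and -1.82. Cdh1, the epithelial adhesion protein E-cadherin, differed by 1.4 in inflamed and -0.52 in polypoid tissue. Prom2 and Srrm4, a splicing factor, differed by 1.56 and 1.61 in polypoid tissue and by 0.02 and -0.29 in inflamed tissue. The Prom2 probe was well above background on 4 of 7 treated and 6 of 8 untreated arrays. Its inflamed levels of -0.03 to 0.09 carry little signal. The 2 probes of Srrm4 differed in sign, and their mean gave a pooled difference of 0.11 in place of 0.66.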

How the data were processed

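Laser-captured colon RNA of 8 mice was amplified in 2 rounds and hybridised to 15 two-colour arrays beside a universal reference. Per the file headers, Agilent Feature Extraction 9.1.1.1 gave the deposited spot intensity and local background values, its processed signals (intensity, background-subtracted and dye-normalised), and their log10 ratio of red over green. The deposited value table holds log2 ratios of sample over reference with swapped dyes already turned (slope 2.862 to 3.068 against the turned log10 ratio on bright spots, column medians -0.012 to 0.031, r of 0.996 or more with the values computed here). How its background was corrected is not given in the sources used here.

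In R 4.3.3 with limma 3.58.1, background was corrected by normexp (offset 50) and the channels by loess. Outlier spots were left out and control spots had weight 0. Swapped arrays were turned, and a fit of mouse plus dye gave 1 value per mouse. Probes were kept if all arrays of some group read them well above background, with the brightest probe per gene, which left 21300 genes (16861 named by a GRCm38.p6 table). Group means were fitted in limma (4 residual and 2.14 prior degrees of freedom), with Benjamini-Hochberg adjustment over all genes. The 2 genes that lacked a value in 1 mouse were fitted on the other mice. The number of mice limits the precision.

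The naming rule took 12 genes each way with the smallest p among shared genes, the 2 members of each list with the smallest p, and 4 genes each way for the tissue difference, passing over unnamed clones. Some genes that the rule took are not reported here and were not replaced. Members and lists were chosen with earlier results of these data known. Of 672 list entries, 663 matched the array.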

Additional observations from a re-analysis of the deposited data

Results flagged for a closer look

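In 5 genes named for the difference between tissues, both 5-ASA mice lay on one side of both untreated mice in inflamed tissue and on the other side in polypoid tissue. The difference of the 5-ASA effect (polypoid minus inflamed) was 1.52 for Ttf2, a transcription termination factor, -3.91 for Xdh, xanthine dehydrogenase, -1.92 for Cdh1, E-cadherin, -1.31 for Pex11a, a peroxisome division protein, and -1.27 for Flot1, a lipid raft scaffold. The limma adjusted p of the difference itself was 0.797 for each of the 5. Opposite directions without overlap held for 1273 of all 21300 genes (5.98%).

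Cdh1 lay at 3.62 and 3.54 against 2.28 and 2.07 in inflamed tissue, and at 3.17 and 2.83 against 3.45 and 3.59 in polypoid tissue. No group held enough mice for a test of single outlying samples.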

How the results depend on the processing

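No gene passed at adjusted p under 0.05 under any of the 19 alternatives with a test, which were the scanner's processed signals, the deposited table, no filter, a stricter filter, no dye term, a mean over probes, an additive model, blocks, an intensity trend and each mouse left out. Unadjusted counts ran from 902 to 3002 and the smallest adjusted p was 0.12. The replicate block gave 0 calls (1960 at unadjusted p under 0.05) and the block within tissue 0 (1455). Replicate numbers were not taken as pairs: replicate 1 minus 2 correlated at 0.03 to 0.36 over the 6 pairs of groups, with 0.26 between the arms in inflamed and 0.03 in polypoid tissue. With session as a block, which left 1 residual degree of freedom, 920 genes had an unadjusted p under 0.05 and 39.5% of them were higher. Values within a session have no test. Genes shared without overlap numbered 1119 to 1540 under the other settings and 2028 to 3339 with 1 mouse left out, where a lone mouse loosens the rule.

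For genes shared without overlap, the sign within a session or with 1 mouse left out was fixed by the rule that chose them. A count of kept signs therefore does not measure stability. Of 2029 alternative values of 93 named genes, 1993 kept their sign. The 36 that did not belong to 28 genes, and the cause was not tested. Within session 1 they were Cdc25b -0.53, Ceacam20 0.34, Defa23 -0.37, Flot1 0.53, Pdk4 -0.09, Pex11a 0.34, Ptges 0.11, Slc4a1 0.02, Srrm4 -0.61, Ttf2 -0.66 and Znrf3 -0.05. Within session 2 they were Abcb1b -0.38, Cdc6 0.20, Cdh1 -0.28, Defa23 -0.09, Ifit2 -0.86, Kdr -0.08, Mcm6 0.10, Nos1 0.10, S100a9 0.21, Srebf2 0.14, Traf1 0.26, Vwf 0.06 and Xdh -1.61. Within session 3 they were Abcb1b -0.10, Cdh1 -0.76, Cnn1 0.50, Creb3l4 0.60, Gzma -0.05, Nos1 0.09, Tagln 0.26 and Xdh -2.02. The stricter filter, which left Srrm4 another probe, gave -0.45. With 1 mouse left out Alas2 ranged from -0.09 to 0.31, Ttf2 from -0.07 to 0.14 and Xdh from -0.06 to 0.32. Of 726 alternative list medians 40 moved by more than their spread and 100 had the opposite sign, in 27 of the 33 lists, most often for macrophages (11 of 22), hypoxia and heat shock (10), fibroblasts and matrix (9) and red blood cells (9).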
